A study of Mus musculus with 55 samples.

Results

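The genes described are 10 genes of the NRF2 antioxidant response, Osgin1, Nqo1, Hmox1, Gclc, Gclm, Txnrd1, Srxn1, Nfe2l2, Gpx3 and Gpx8. They were chosen by name and found by their Ensembl identifiers among the 31933 genes of 3 raw count tables, 1 per fat depot. All 10 were found, and all 10 had enough reads to be tested in each depot. Corticosterone raised Osgin1 in every depot at both temperatures, by 4.49-fold to 14.5-fold. In brown fat at 22 °C and gonadal fat at 13 °C the rise did not pass in some fits that left out 1 library. The 14.5-fold end, in brown fat at 13 °C, rests on placebo libraries of which 3 of 5 had under 10 counts of Osgin1. Nqo1, Gclc, Txnrd1, Nfe2l2 and Gpx3, 5 of the 10 genes, passed the test in none of the 15 comparisons made within a depot.

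The libraries came from male C57BL/6NRj mice, 10 weeks old, that were given placebo (Ctrl) or corticosterone (GC), their chief glucocorticoid, to drink for 4 weeks. The mice were housed at 22 °C (called RT in the labels) or at 13 °C (CT), and the series asks how this temperature bears on what glucocorticoids do in fat. Areas of 3 depots, namely brown fat from between the shoulder blades (iBAT) and white fat from gonadal (goWAT) and subcutaneous (scWAT) sites, were cut out by laser capture microdissection, and about 2 ng of RNA went into each SMARTSeq2 library. There were 55 libraries in 12 groups. Placebo at 22 °C had 3 libraries of iBAT and 4 of each white depot, GC at 13 °C had 4 of scWAT and 5 of each other depot, and all other groups had 5. How the areas were chosen, and which of them come from the same animal, the labels do not say. Where areas within a group shared an animal, p-values over libraries are too small. Where depots shared animals, the tests between depots leave that pairing out. The p-values measure only the spread between these libraries.

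NRF2, the product of Nfe2l2, is a transcription factor that KEAP1 holds in the cytoplasm and hands to the proteasome until oxidants or electrophiles release it. Released NRF2 pairs with a small MAF protein on antioxidant response elements and drives genes for glutathione synthesis, thioredoxin recycling, quinone reduction and haem breakdown. Fat cells make oxidants during fatty acid oxidation and thermogenesis, and brown fat has many mitochondria.

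The sequences around the start sites are shown first for the 4 genes of the group that changed in the count data below and have an entry in the RefSeq promoter table (GRCm38.p6, 250 bases before to 50 after a start site). The core of the antioxidant response element was searched only as TGACNNNGC, on both strands, and its matches are in capitals. A spelling with TGAG in place of TGAC was not searched, so a window without a match can hold another form of the element. On chromosome 8 the Osgin1 window, chr8:119436897-119437196 on the plus strand, lies inside the annotated gene and holds no match. The Gpx8 window, chr13:113046339-113046638 on the minus strand, holds none either. A match on the minus strand begins at position 29 relative to the start site in the Srxn1 window, chr2:152105274-152105573 on the plus strand, and at position -134 in the Gclm window, chr3:122245307-122245606 on the plus strand.
Osgin1: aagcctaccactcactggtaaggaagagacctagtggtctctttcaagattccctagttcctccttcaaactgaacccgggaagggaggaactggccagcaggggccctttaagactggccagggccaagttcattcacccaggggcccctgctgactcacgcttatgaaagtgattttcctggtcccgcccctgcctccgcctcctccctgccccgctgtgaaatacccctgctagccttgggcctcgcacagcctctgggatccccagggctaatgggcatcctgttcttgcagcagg
Gpx8: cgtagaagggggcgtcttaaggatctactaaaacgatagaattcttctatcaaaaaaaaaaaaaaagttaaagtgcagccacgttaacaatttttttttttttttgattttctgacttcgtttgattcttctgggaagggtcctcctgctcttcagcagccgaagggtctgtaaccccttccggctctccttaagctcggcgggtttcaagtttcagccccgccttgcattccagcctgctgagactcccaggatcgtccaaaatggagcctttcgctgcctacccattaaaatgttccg
Srxn1: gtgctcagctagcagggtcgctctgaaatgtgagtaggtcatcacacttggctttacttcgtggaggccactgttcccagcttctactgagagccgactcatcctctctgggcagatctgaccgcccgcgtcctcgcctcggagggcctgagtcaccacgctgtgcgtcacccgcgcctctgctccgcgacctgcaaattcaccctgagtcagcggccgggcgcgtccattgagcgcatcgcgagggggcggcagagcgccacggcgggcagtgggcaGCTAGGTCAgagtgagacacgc
Gclm: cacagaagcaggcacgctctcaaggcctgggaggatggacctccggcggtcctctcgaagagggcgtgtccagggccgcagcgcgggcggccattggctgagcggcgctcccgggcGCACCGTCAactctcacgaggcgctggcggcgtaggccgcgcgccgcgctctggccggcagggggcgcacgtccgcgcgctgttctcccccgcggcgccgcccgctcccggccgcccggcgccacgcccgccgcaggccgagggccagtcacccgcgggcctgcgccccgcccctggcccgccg
Of the 10 genes, 8 had a window, and Hmox1 and Gclc had none. Of the 10 windows of these 8 genes, 4 held a match, the others being that of Nfe2l2 and 1 of the 3 of Txnrd1, whereas 4071 of 32851 windows of all genes did (12.4%). A match describes letters in the window and is not a binding site.

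Library totals were 14043773 to 35790654 counts for iBAT. Those of goWAT were 12310822 to 53121372 counts, and scWAT had the widest range, 8622178 to 56450653. Levels are given in CPM, a gene's counts divided by its library size after TMM scaling and set to the usual scale of the unit. The labelled depots were checked against the brown adipocyte gene Ucp1, which was at 1158 to 13256 CPM in iBAT, 2.20 to 1107 CPM in scWAT and 0.0242 to 594 CPM in goWAT, and against Adipoq, at 496 CPM or more in all 55 libraries. Some libraries stood apart in marker genes of other cells. The sum of 12 skeletal muscle markers reached 2726 CPM in scWAT GC at 22 °C (group median 26.5) and 609 CPM in scWAT placebo at 22 °C. In iBAT it reached 360 CPM in placebo at 22 °C, and 406 CPM in placebo and 997 CPM in GC at 13 °C. Summed CPM of 16 macrophage markers reached 13927 and 9738 in scWAT GC libraries 2 and 3 at 22 °C and 5755 in iBAT GC library 5 at 22 °C. The sum of 10 brown adipocyte markers reached 1358 and 1960 in goWAT GC library 1 at 22 °C and at 13 °C, against 28.1 to 159 in the other goWAT libraries. The sum of 10 epididymis markers was 1416.5 in goWAT GC library 5 at 22 °C and 513 and 3561 in placebo libraries 1 and 4 at 13 °C, against 0.0243 to 48.5 in the others. The sum of 8 epithelial markers was 104.6 in scWAT placebo library 3 and 81.0 to 402 in GC libraries 3, 4 and 5 at 13 °C, against 0.195 to 2.74 in the other scWAT libraries. Each call that was lost without such libraries is given with its value beside it.

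A gene was called changed where its Benjamini-Hochberg adjusted p, from edgeR's quasi-likelihood test over all genes tested in that comparison, was under 0.05. Over the 6 comparisons of GC with placebo, the 10 genes gave 60 tests and 12 calls, 6 of them Osgin1. In iBAT, 2 of the 10 were called at 22 °C (Osgin1 higher, Gpx8 lower), where 0.664% of all genes were, and 1 at 13 °C (Osgin1), where 0.728% were. In goWAT, 2 were called at 22 °C (Osgin1 and Hmox1, both higher) against 5.98% of all genes, and 1 at 13 °C (Osgin1) against 1.45%. In scWAT, 2 were called at 22 °C (Osgin1 higher, Gpx8 lower) against 6.93%, and 4 at 13 °C (Osgin1 higher, Gpx8, Gclm and Srxn1 lower) against 2.59%. The group had no common direction. At 22 °C its median log2 change with GC was 0.30 in goWAT, 0.07 in scWAT and -0.15 in iBAT, and at 13 °C the same depots had -0.11, -0.29 and 0.07, beside medians over all genes between 0.01 and 0.06.

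**Figure D1:**
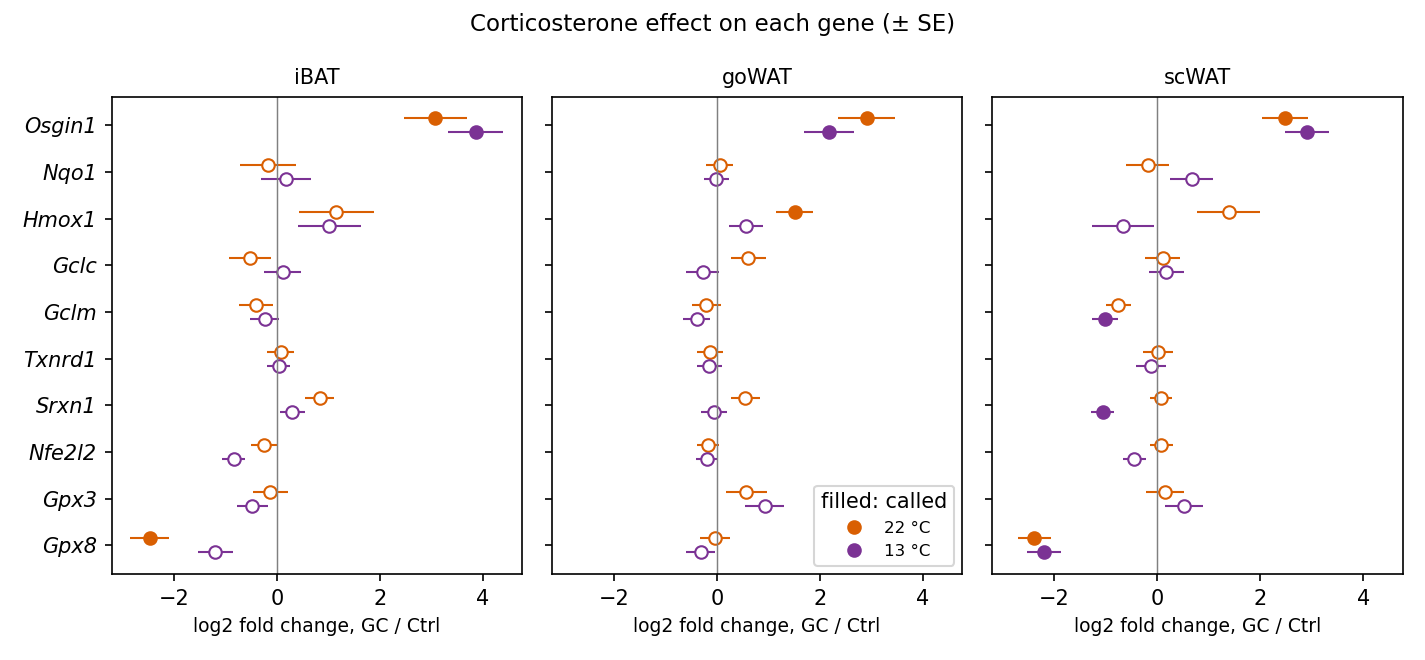
Log2 fold change of GC over placebo (x axis) of the 10 genes (y axis) in the 3 depots, with bars of 1 SE; orange is 22 °C, purple is 13 °C, and filled points passed the adjusted threshold. Osgin1 lies at 2.17 or above in all 6 comparisons, Gpx8 lies at -1.20 or below in iBAT and scWAT and near 0 in goWAT, and most other points lie within 1 of 0.

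Osgin1 (ENSMUSG00000074063, chr8:119434124-119446256) encodes oxidative stress induced growth inhibitor 1, an NRF2 target that is known to restrain growth. At 22 °C in iBAT it was at 0.897, 0.985 and 1.09 CPM in the 3 placebo libraries and at 11.4, 9.29, 10.3, 3.59 and 7.28 CPM in the 5 GC libraries. At 13 °C in iBAT the placebo libraries held 0.161, 0.710, 0.116, 0.134 and 0.821 CPM, and the GC libraries 2.32, 8.26, 3.86, 6.99 and 7.37 CPM. All 10 GC libraries of iBAT were above all 8 placebo libraries of iBAT. Osgin1 rose by 3.08 (SE 0.62) on the log2 scale at 22 °C, adjusted p = 0.0177, and by 3.86 (SE 0.54) at 13 °C, adjusted p = 0.000805. Placebo libraries 1, 3 and 4 at 13 °C had under 10 counts of Osgin1, so the size of the rise there rests on few counts. In these areas of mixed cells, fewer cells of a type and less RNA per cell cannot be told apart, for Osgin1 or any gene below. The call at 22 °C was lost without placebo library 1 (adjusted p = 0.137), without placebo library 2 (0.0909) or without GC library 1 (0.0537), with the log2 change at 2.94 to 3.09. It was also lost without the macrophage-rich placebo library 1 and GC library 5 together (3.05, adjusted p = 0.176), and without the muscle-rich placebo library 3 and library 4 of placebo and of GC at 13 °C (3.17, adjusted p = 0.0541).

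In goWAT, GC took Osgin1 to 43.3 CPM, the highest value over the 55 libraries, each scaled within its depot. At 22 °C the placebo libraries held 0.949, 4.08, 6.40 and 3.52 CPM and the GC libraries 43.3, 25.9, 34.0, 18.0 and 18.8 CPM, and at 13 °C the placebo libraries held 6.25, 1.98, 1.75, 10.8 and 5.66 CPM and the GC libraries 25.4, 29.3, 32.9, 10.1 and 21.1 CPM. The groups were apart at 22 °C, and at 13 °C GC library 4 was below placebo library 4. Osgin1 rose 7.50-fold at 22 °C (log2 2.91, SE 0.55, adjusted p = 0.00308) and 4.49-fold at 13 °C (log2 2.17, SE 0.49, adjusted p = 0.0282). The call at 13 °C was lost without placebo library 1, 2, 3 or 5 or GC library 3 or 5 (adjusted p 0.0533 to 0.0699), and with the replicate number as a block (adjusted p = 0.0937). Without the goWAT libraries rich in brown adipocyte markers both calls held (log2 2.68 and 2.13). They also held without the 3 rich in epididymal markers (GC library 5 at 22 °C and placebo libraries 1 and 4 at 13 °C), where the rise at 13 °C was 2.92 (SE 0.56, adjusted p = 0.0210) and that at 22 °C 3.02.

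In scWAT, Osgin1 was at 3.48, 0.665, 1.57 and 3.09 CPM in placebo and 18.5, 6.65, 8.07, 12.8 and 15.6 CPM in GC at 22 °C. At 13 °C it was at 3.62, 1.40, 3.08, 2.52 and 2.08 CPM in placebo and 27.4, 11.9, 13.6 and 24.0 CPM in GC. All 9 GC libraries were above all 9 placebo libraries. The rise was 5.57-fold at 22 °C (log2 2.48, SE 0.45, adjusted p = 0.00175) and 7.51-fold at 13 °C (log2 2.91, SE 0.43, adjusted p = 0.000585), and leaving out any 1 library left both calls in place.

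**Figure D2:**
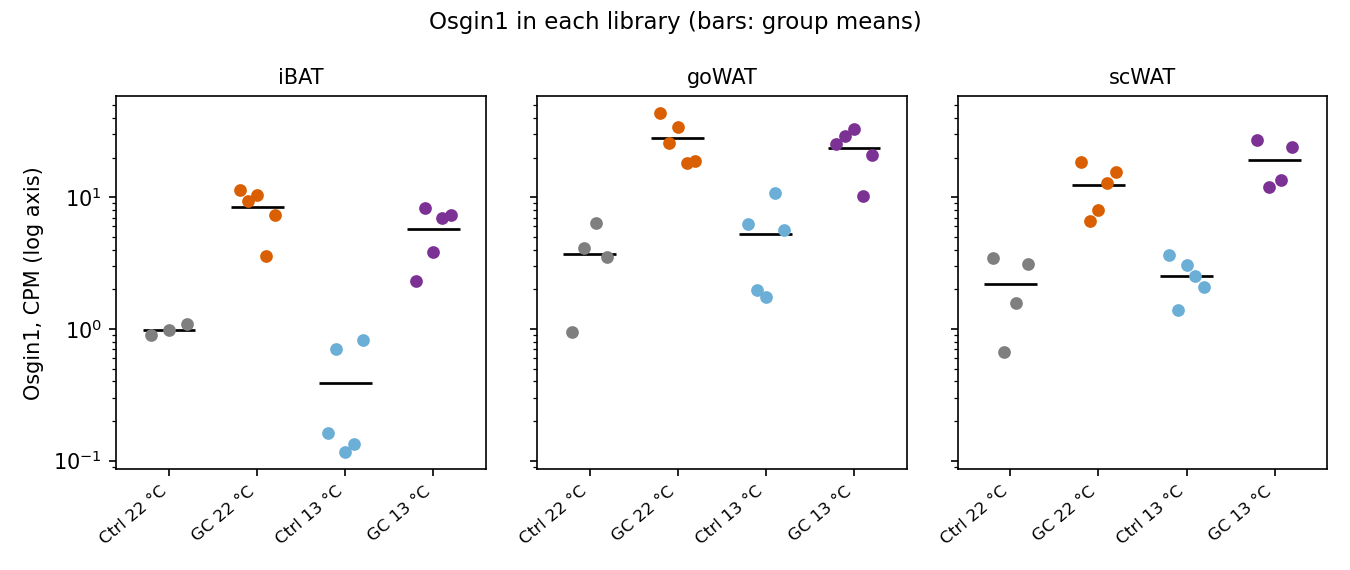
Osgin1 in CPM on a log axis, 1 point per library, by depot and group, with bars at the group means. GC libraries lie above placebo libraries in every panel and at both temperatures, except for GC library 4 of goWAT at 13 °C, at 10.1 CPM, below the highest placebo library at 10.8 CPM.

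The size of the Osgin1 response was compared between temperatures and depots. The interaction of Osgin1, the effect of GC in the cold less that at 22 °C, was 0.78 in iBAT (95% interval -0.75 to 2.31), -0.74 in goWAT (-2.17 to 0.69) and 0.43 in scWAT (-0.79 to 1.65) on the log2 scale, and passed the test in none (adjusted p 0.662 to 0.869). Neither did the GC effect of Osgin1 pass a test of difference between depots at 22 °C (adjusted p = 0.864) or at 13 °C (0.413), where the largest gap, iBAT over goWAT at 13 °C, was 1.74 (95% interval 0.34 to 3.13). Cold alone in placebo iBAT gave Osgin1 a log2 difference of -1.31 (SE 0.58, adjusted p = 0.534), with no overlap between groups but with only 2, 2 and 3 counts in placebo libraries 3, 4 and 1 at 13 °C.

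The genes most like Osgin1 in level were named by the highest mean Pearson r with it in log2 CPM over the 3 depots (18, 19 and 18 libraries, both treatments included) among 10886 genes. They were Arntl, a core transcription factor of the circadian clock, with a mean r of 0.85, Mturn with 0.85, Anxa6, a membrane-binding annexin, with 0.84, Lox, which crosslinks collagen and elastin, with 0.83, and Cd164l2 with 0.81. These values describe libraries that share treatment groups and depth. No other gene of the NRF2 group came near, the closest being Nqo1 with a mean r of 0.28, at rank 1455. At the other end stood Nfe2l2 with -0.47, Gclm with -0.62 and Gpx8 with -0.69.

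Nfe2l2 (ENSMUSG00000015839, chr2:75675513-75704641), which encodes NRF2 itself, was called in no comparison within a depot. Its level ranged from 30.2 to 100.2 CPM over the 55 libraries, each scaled within its depot, a 3.31-fold range that was the narrowest of the 10 genes, with Txnrd1 next at 3.34-fold. The nearest to a call was GC at 13 °C in iBAT, where placebo libraries held 66.8, 91.6, 53.0, 76.4 and 69.3 CPM and GC libraries 44.6, 43.3, 42.3, 39.0 and 30.2 CPM. The groups did not overlap, and the log2 difference was -0.84 (SE 0.23, adjusted p = 0.0954). DESeq2 called it (adjusted p = 0.0169), as did limma with library weights (0.0362). In the other 5 GC comparisons the log2 difference of Nfe2l2 lay between -0.45 and 0.08.

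Gpx8 (ENSMUSG00000021760, chr13:113042753-113046410), a peroxidase of the endoplasmic reticulum whose gene lies within Cdc20b on the other strand, was the gene of the group that fell most. In iBAT at 22 °C it was at 279, 325 and 125 CPM in placebo and 36.4, 34.0, 24.5, 65.7 and 58.7 CPM in GC, and at 13 °C at 145, 132, 137, 172 and 134 CPM in placebo and 47.3, 78.9, 114, 43.6 and 30.3 CPM in GC. No GC library of iBAT reached the lowest placebo library of its temperature. The fall at 22 °C was 5.54-fold (log2 -2.47, SE 0.38, adjusted p = 0.00259). At 13 °C the log2 difference was -1.20 (SE 0.34) and missed the threshold (adjusted p = 0.113), but was called by DESeq2 (0.0295), by limma with library weights (0.0377) and without GC library 3 (-1.53, adjusted p = 0.0364).

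In scWAT, Gpx8 was at 342, 502, 191 and 233 CPM in placebo and 67.3, 62.2, 39.5, 76.0 and 57.6 CPM in GC at 22 °C. At 13 °C it was at 147, 197, 269, 231 and 364 CPM in placebo and 53.9, 79.4, 47.2 and 29.4 CPM in GC. The groups did not overlap at either temperature. Gpx8 fell 5.24-fold at 22 °C (log2 -2.39, SE 0.32, adjusted p = 0.000111) and 4.60-fold at 13 °C (log2 -2.20, SE 0.34, adjusted p = 0.000788). Without the 4 libraries that held epithelial markers, which leaves 1 GC library at 13 °C whose spread is assumed to be that of the other groups, the value at 13 °C was -2.11 and not called (adjusted p = 0.338).

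In goWAT, Gpx8 was low in all groups. It was at 33.9, 30.9, 29.8 and 36.5 CPM in placebo and 29.0, 20.0, 21.6, 37.5 and 49.8 CPM in GC at 22 °C, and ranged from 15.2 to 39.9 CPM at 13 °C. The log2 difference with GC was -0.05 (SE 0.29, adjusted p = 0.942) at 22 °C and -0.32 (SE 0.28, adjusted p = 0.634) at 13 °C. The GC effect at 22 °C differed between the 3 depots (edgeR's F-test over the 55 libraries, adjusted p = 0.0117). Gpx8 was the 1 gene of the 10 called in that test, against 0.742% of all genes. The effect in iBAT minus that in goWAT was -2.37 (SE 0.50), the effect in goWAT was 2.26 (SE 0.48) above that in scWAT, and iBAT and scWAT differed by -0.10 (SE 0.50, 95% interval -1.10 to 0.89). The call was lost without placebo library 1 of iBAT at 22 °C (adjusted p = 0.0512). At 13 °C none of the 10 was called in this test (0.234% of all genes), and Gpx8 had an adjusted p of 0.124 and Srxn1 of 0.107. There 3 of the 10 had an unadjusted p under 0.05, as did 2737 of 22245 of all genes.

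Marker sums of other cells moved with Gpx8 in some depots and at some temperatures, and not in others. In scWAT the sum of 10 brown adipocyte markers had medians of 1346 CPM in placebo and 101 CPM in GC at 22 °C and of 2510 and 258 CPM at 13 °C, with no overlap. In iBAT at 22 °C that sum had medians of 8919 CPM (5227 to 34875) in placebo and 9548 CPM (7642 to 15782) in GC. The sum of 10 progenitor and fibroblast markers had medians of 1099 CPM (315 to 1501) and 296 CPM (217 to 681). The sum of 10 white adipocyte markers did not overlap there, at 28867 to 64132 CPM in placebo and 16994 to 28309 CPM in GC, and the sum of 12 skeletal muscle markers had medians of 139 CPM (31.8 to 360) and 2.89 CPM (1.36 to 177). In scWAT at 22 °C the progenitor and fibroblast sum had medians of 3816 CPM (2317 to 5463) and 3406 CPM (1989 to 5415). The white adipocyte sum was at 85836 to 116104 CPM in placebo and 46023 to 79077 CPM in GC, again with no overlap. In goWAT at 22 °C, where no change of Gpx8 was called, the brown adipocyte sum had medians of 109 CPM (76.8 to 159) in placebo and 40.7 CPM (36.9 to 1358) in GC. Medians there were higher in GC for progenitors and fibroblasts, white adipocytes and skeletal muscle, but each of these sums overlapped between treatments. In placebo and GC they were 1912 (1678 to 2139) and 2023 CPM (1701 to 3992) for progenitors and fibroblasts. White adipocytes had 84388 (69942 to 106638) and 104862 CPM (59196 to 295171), and skeletal muscle 28.1 (16.2 to 195) and 53.0 CPM (35.3 to 316). At 13 °C the white adipocyte sum overlapped between treatments in both iBAT and scWAT. Its medians in placebo and GC were 25487 and 30087 CPM in iBAT and 73624 and 84072 CPM in scWAT. Those of progenitors and fibroblasts were 466 and 284 CPM in iBAT and 1965 and 1381 CPM in scWAT, also with overlap. Skeletal muscle had 6.28 and 5.65 CPM in iBAT and 23.5 and 76.9 CPM in scWAT. The part of these cells in the fall of Gpx8 was not tested.

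**Figure D3:**
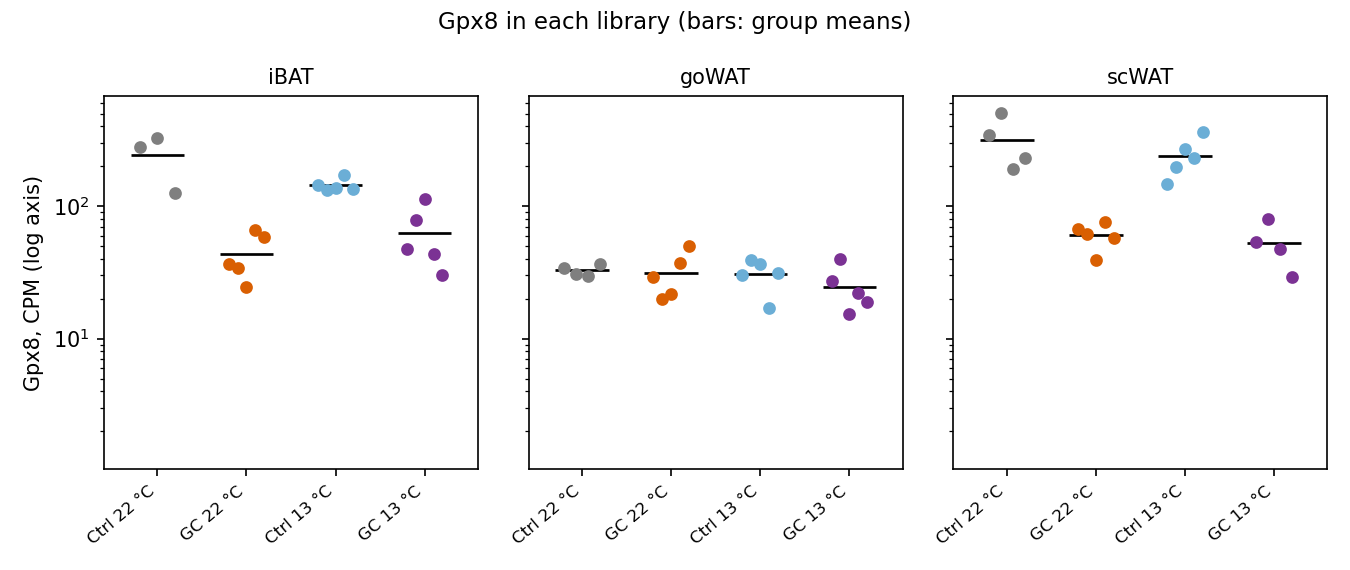
Gpx8 in CPM on a log axis, 1 point per library, by depot and group, with bars at the group means. In iBAT and scWAT each GC group lies below the placebo group of its temperature, and in goWAT all 19 libraries lie between 15.2 and 49.8 CPM.

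Hmox1 (ENSMUSG00000005413, chr8:75093621-75100589), which encodes the inducible haem oxygenase and is abundant in macrophages that clear red cells, was called in 1 comparison. In goWAT at 22 °C it was at 6.81, 6.10, 2.92 and 4.56 CPM in placebo and 9.58, 19.0, 12.3, 20.7 and 11.1 CPM in GC, with no overlap. It rose 2.84-fold (log2 1.50, SE 0.37, adjusted p = 0.0161). The call was lost without placebo library 3 (adjusted p = 0.0717) or 4 (0.0645), under limma with library weights (0.0550), and without GC libraries 2 and 4 together (log2 1.09, adjusted p = 0.121). GC libraries 2 and 4 had the highest macrophage sums of their group, and all 16 macrophage markers were detected in every goWAT library. Their sum had medians of 1065 CPM (932 to 1242) in placebo and 1752 CPM (1143 to 2611) in GC, and its part in the rise was not tested.

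In scWAT at 22 °C, Hmox1 was at 12.9, 5.68, 22.9 and 7.41 CPM in placebo and 17.3, 78.9, 43.5, 6.24 and 14.0 CPM in GC. The 2 high values were those of the macrophage-rich GC libraries 2 and 3. The log2 difference was 1.39 (SE 0.61, adjusted p = 0.182) with them and 0.04 (SE 0.50) without them. In iBAT Hmox1 ranged from 1.66 to 40.2 CPM with overlapping groups in both GC comparisons. The log2 difference with cold in placebo goWAT was 1.41 (SE 0.36, adjusted p = 0.133), with placebo at 13.2, 11.1, 12.1, 9.16 and 22.3 CPM at 13 °C, all above the 4 placebo libraries at 22 °C. DESeq2 called this difference (adjusted p = 0.0193).

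**Figure D4:**
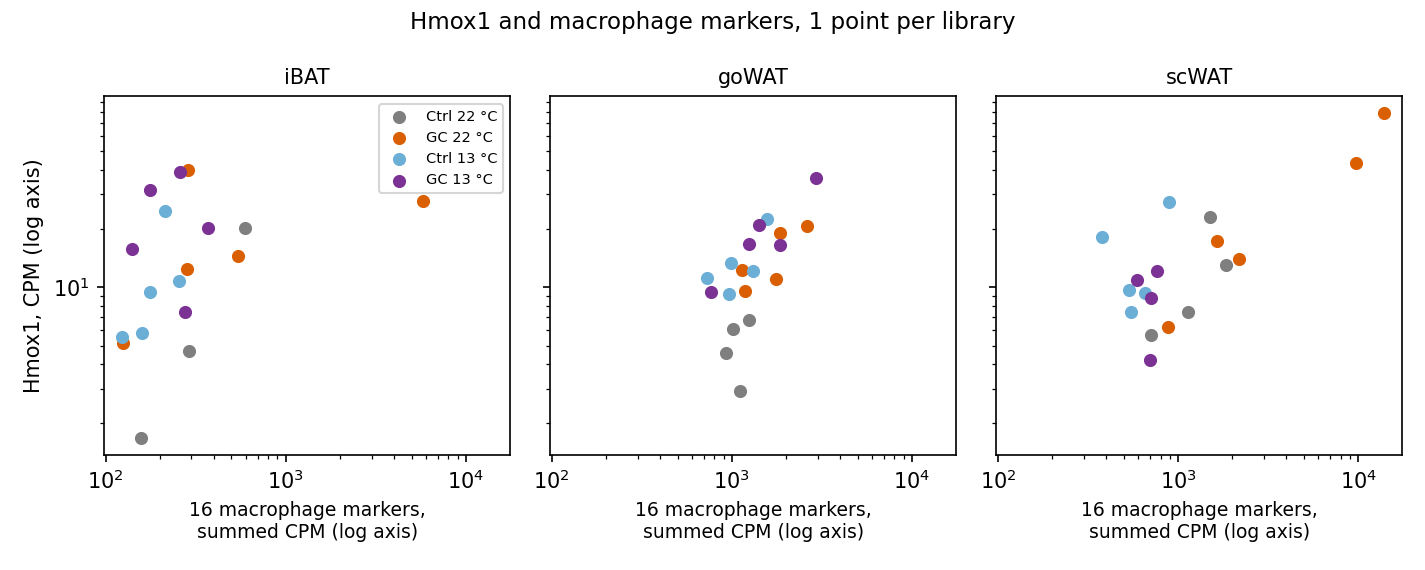
Hmox1 in CPM against the summed CPM of 16 macrophage markers, both on log axes, 1 point per library, coloured by group, in the 3 depots. The highest Hmox1 values of scWAT, 78.9 and 43.5 CPM, are those of the 2 libraries with macrophage sums of 13927 and 9738 CPM.

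Glutamate-cysteine ligase, the rate-limiting enzyme of glutathione synthesis, has a catalytic subunit, Gclc (ENSMUSG00000032350, chr9:77754535-77794485), and a modifier subunit, Gclm (ENSMUSG00000028124, chr3:122245557-122270732, overlapped by Gm17494 on the other strand). Gclm passed the test in 1 GC comparison and Gclc in none, but the 2 genes were not compared with each other. Gclm at 13 °C in scWAT was at 38.7, 56.0, 33.4, 41.7 and 61.6 CPM in placebo and 30.1, 18.7, 18.5 and 24.3 CPM in GC, with no overlap. It fell 2.02-fold (log2 -1.01, SE 0.25, adjusted p = 0.0325). The call was lost without placebo library 2, 4 or 5 or GC library 3, 4 or 5 (adjusted p 0.0573 to 0.125), with the replicate number as a block (0.0799), and without the 4 libraries that held epithelial markers (log2 -0.71, adjusted p = 1). At 22 °C in scWAT, Gclm was at 61.8, 51.4, 60.8 and 41.4 CPM in placebo and 20.2, 23.5, 38.1, 39.1 and 38.4 CPM in GC. These groups did not overlap either, and the log2 difference was -0.76 (SE 0.25, adjusted p = 0.0677), which was called without GC library 4 (-0.84, adjusted p = 0.0490). All 6 log2 differences of Gclm with GC were below 0, from -1.01 to -0.21. Those of Gclc ran from -0.52 to 0.60 with none called (adjusted p 0.308 to 0.951).

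Srxn1 (ENSMUSG00000032802, chr2:152105516-152111376) encodes sulfiredoxin, which returns over-oxidised peroxiredoxins to use, and within scWAT was lowest in mice given GC in the cold. At 13 °C in scWAT it was at 36.8, 37.5, 22.7, 27.8 and 39.3 CPM in placebo and 20.0, 16.3, 13.2 and 13.3 CPM in GC, with no overlap, and at 22 °C GC libraries held 29.6, 27.2, 35.7, 32.0 and 21.1 CPM. Srxn1 fell 2.09-fold with GC at 13 °C (log2 -1.06, SE 0.22, adjusted p = 0.00939). It fell 1.85-fold with cold in GC mice (log2 -0.89, SE 0.22, adjusted p = 0.0216), a comparison that shares the same GC libraries at 13 °C. At 22 °C the placebo libraries held 33.1, 26.8, 25.2 and 26.2 CPM and the log2 difference with GC was 0.07 (SE 0.21, adjusted p = 0.892). The interaction was -1.13 (95% interval -1.77 to -0.49) and did not pass edgeR's test (adjusted p = 0.261), whereas DESeq2 called it (0.0441). The call for cold in GC mice was lost without GC library 3 at 22 °C (adjusted p = 0.0591) or GC library 3, 4 or 5 at 13 °C (0.0503 to 0.0758), with only the groups compared in the fit (0.0577), and without GC libraries 2 and 3 at 22 °C together (0.131). GC libraries 3, 4 and 5 at 13 °C also held the epithelial markers. Without these and placebo library 3, which leaves 1 GC library at 13 °C, at 20.0 CPM, the log2 value was -0.81 for GC at 13 °C (adjusted p = 1) and -0.51 for cold in GC mice (adjusted p = 0.723). The part of epithelial cells in the fall was not tested.

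In iBAT edgeR called no change of Srxn1. At 22 °C it was at 18.8, 22.6 and 24.6 CPM in placebo and 34.8, 23.0, 56.8, 52.4 and 29.0 CPM in GC. The log2 difference was 0.83 (SE 0.28, adjusted p = 0.220), with GC library 2 below placebo library 3, and limma with library weights called it (0.0183). At 13 °C the log2 difference in iBAT was 0.30 (SE 0.24, adjusted p = 0.745). This GC effect was 1.37 (95% interval 0.68 to 2.06) above that in scWAT, while the test over the 3 depots did not pass after adjustment.

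**Figure D5:**
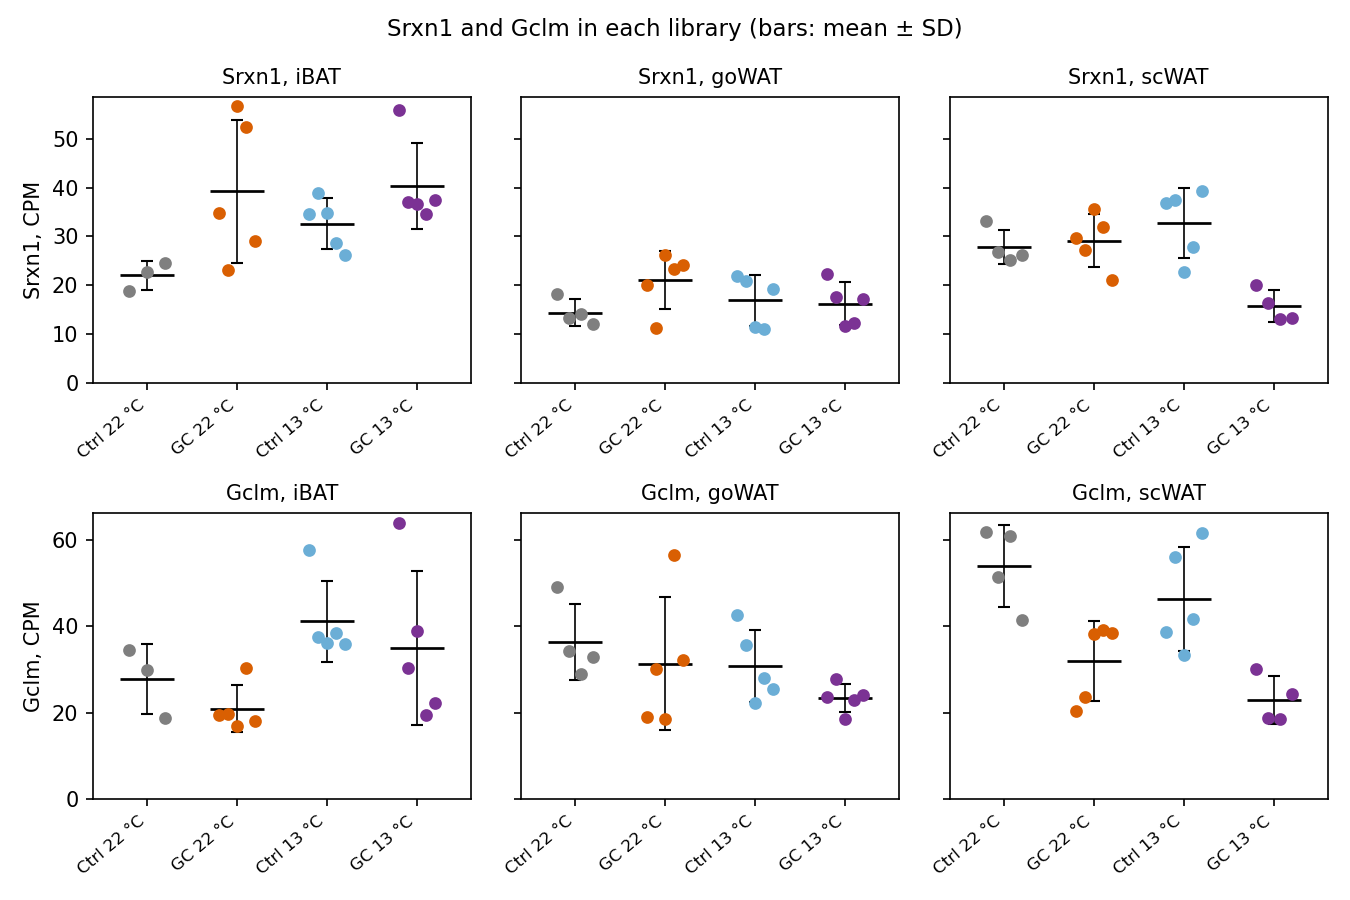
Srxn1 (upper row) and Gclm (lower row) in CPM, 1 point per library, by depot and group, with bars at the mean and 1 SD. In scWAT the GC libraries at 13 °C lie at 13.2 to 20.0 CPM for Srxn1 and 18.5 to 30.1 CPM for Gclm, below every placebo library at 13 °C.

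The remaining genes of the group were called in no GC comparison. Txnrd1 (ENSMUSG00000020250, chr10:82833951-82897712, overlapped by Eid3 and by 2 genes on the other strand) encodes the cytosolic thioredoxin reductase, and its log2 differences with GC lay between -0.15 and 0.07 (SE 0.23 to 0.29), the tightest of the 10 genes. Nqo1 (ENSMUSG00000003849, chr8:107388225-107403206), the quinone reductase often read as a gauge of NRF2 activity, had log2 differences with GC between -0.19 and 0.66 (adjusted p 0.479 to 0.989). In scWAT at 13 °C, the largest of these, Nqo1 was at 4.17, 5.12, 5.02, 6.27 and 5.43 CPM in placebo and 7.40, 8.03, 7.04 and 10.4 CPM in GC. These groups did not overlap. Gpx3 (ENSMUSG00000018339, chr11:54902453-54910377), a selenoprotein secreted into plasma, had log2 differences with GC between -0.47 and 0.93, the largest in goWAT at 13 °C (SE 0.38, adjusted p = 0.228), where placebo libraries held 767 to 1464 CPM and GC libraries 983 to 3669 CPM.

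Cold changed 1 of the 10 genes in 60 tests, the fall of Srxn1 in scWAT of GC mice, where 8.18% of all genes were called. None of the 10 was called by edgeR for cold in placebo mice in iBAT (0.0175% of all genes), goWAT (0.312%) or scWAT (0% of all genes, with 2364 of 19003 at an unadjusted p under 0.05), nor for cold in GC mice in iBAT (0.00583%) or goWAT (0.0149%). At an unadjusted p under 0.05 these 5 comparisons held 1, 1, 0, 2 and 0 of the 10 genes. Over all genes they held 1500 of 17163, 1370 of 20175, 2364 of 19003, 2664 of 17163 and 2890 of 20175 in the same order. DESeq2 called 0, 1, 0, 0 and 0 of the 10. In scWAT of GC mice, Hmox1 had a log2 difference with cold of -1.83 (SE 0.62, adjusted p = 0.0699), and DESeq2 called it (0.0163), as did edgeR without GC library 1 (0.0402) or 4 (0.0260) at 22 °C. Without the macrophage-rich GC libraries 2 and 3 at 22 °C it was -0.46 (SE 0.50, adjusted p = 0.665), and without the 4 libraries that held epithelial markers -2.91 (SE 1.34, adjusted p = 0.705). In this comparison 15 of 16 macrophage markers fell, and their part in the Hmox1 difference was not tested. The interaction called none of the 10 in iBAT (0% of all genes), goWAT (0.461%) or scWAT (0%), and DESeq2 called 0, 0 and 1. At an unadjusted p under 0.05 it held 1, 0 and 2 of the 10, beside 1098 of 17163, 2707 of 20175 and 1838 of 19003 of all genes.

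Levels in placebo mice, both temperatures together (8 libraries in iBAT, 9 in goWAT and 9 in scWAT), were compared per kilobase of exon within a depot. Gpx3 was highest in all 3 depots, at 2232 ± 924 CPM per kb (SD, n = 8) in iBAT, 659 ± 342 (n = 9) in goWAT and 621 ± 184 (n = 9) in scWAT. Gpx8 and Nfe2l2 came next, Gpx8 at 211 ± 90.1, 27.6 ± 5.86 and 236 ± 93.8 and Nfe2l2 at 21.3 ± 4.60, 16.5 ± 3.56 and 16.2 ± 2.96 CPM per kb in the same order of depots. Osgin1 was lowest in each, at 0.280 ± 0.188, 1.56 ± 1.02 and 0.805 ± 0.351 CPM per kb. Some neighbours in this order lay within 1 SD of each other. In goWAT, Txnrd1 was at 5.91 ± 1.45, Srxn1 at 5.12 ± 1.42, Hmox1 at 5.11 ± 3.03, Nqo1 at 4.94 ± 1.16 and Gclm at 4.83 ± 1.27 CPM per kb.

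Between depots, 6 of the 10 genes differed in placebo mice between iBAT and goWAT, where 43.3% of all genes did. Gpx8 was 7.86-fold higher in iBAT (log2 2.97, SE 0.26, adjusted p = 6.71e-13), Gpx3 3.43-fold higher (log2 1.78), Srxn1 2.29-fold higher (log2 1.20) and Txnrd1 1.44-fold higher (log2 0.52, adjusted p = 0.0267). Osgin1 was 5.28-fold lower in iBAT (log2 -2.40, SE 0.41, adjusted p = 5.24e-06) and Nqo1 2.58-fold lower (log2 -1.37). The call of Txnrd1 was lost without placebo library 1 at 22 °C of iBAT (adjusted p = 0.104) or of goWAT (0.0629). Between iBAT and scWAT, 3 of the 10 differed against 19.5% of all genes, Osgin1 (2.80-fold lower in iBAT, adjusted p = 0.00640), Nqo1 (1.78-fold lower, adjusted p = 0.0417) and Gpx3 (3.64-fold higher, adjusted p = 2.76e-06). The Nqo1 call was lost with RLE factors (0.0529), with no filter on low counts (0.0613), and in 10 of the 55 fits that left out 1 library (0.0505 to 0.161). In placebo mice the libraries were numbers 2 and 3 of iBAT at 22 °C and 4 and 5 at 13 °C, and 1, 3 and 4 of scWAT at 22 °C and 4 and 5 at 13 °C, and the last was GC library 1 of goWAT at 13 °C. Between goWAT and scWAT, 2 of the 10 differed against 14.2% of all genes, Gpx8 (8.54-fold lower in goWAT, adjusted p = 1.65e-12) and Srxn1 (1.90-fold lower, adjusted p = 0.000214). Gclm (log2 -0.55, adjusted p = 0.0530) was called with the replicate number as a block (0.0381). Some fits that left out 1 library called Gclm or Osgin1 (log2 0.91, adjusted p = 0.0688). Between iBAT and goWAT, some such fits called Nfe2l2 (log2 0.34, adjusted p = 0.0729), as did RLE factors (0.0378), and 1 called Gclm (log2 0.43, adjusted p = 0.0865). The median log2 difference of all genes was -0.20 between iBAT and goWAT, -0.10 between iBAT and scWAT and 0.06 between goWAT and scWAT.

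Around the 10 genes, 81 other genes of NRF2 control, glutathione, thioredoxin, NADPH supply, haem and iron, detoxification and selenoprotein synthesis were followed, of which 77 were tested in iBAT and 79 in each white depot. In iBAT 1 of 77 rose with GC at 22 °C, where 0.664% of all genes were called, and none was called at 13 °C (0.728% of all genes). The 1 was Mafk, a small MAF partner of NRF2 (log2 1.68, SE 0.37, adjusted p = 0.0325). In goWAT at 22 °C, 2 of 79 rose and 2 fell, a share of 5.06% that was close to the 5.98% of all genes. Prdx6, a peroxiredoxin that reduces phospholipid peroxides, rose by 2.32 (SE 0.37) and Slc7a11, the cystine importer, by 1.94 (SE 0.49), and Txnrd3 fell by 1.18 and Sephs2, which makes the selenium donor, by 1.40. At 13 °C 2 of 79 were called (2.53%, against 1.45% of all genes), Prdx6, higher by 1.38 (SE 0.33), and the iron exporter Slc40a1, higher by 1.56 (SE 0.39).

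In scWAT at 22 °C, 5 of the 79 rose with GC and 6 fell, 13.9% against 6.93% of all genes. Prdx6 rose by 1.92 (SE 0.41), the reductases Ptgr1 by 1.76, Akr1b8 by 1.11 and Nqo2 by 0.91, and the glutaredoxin Glrx by 1.12. Among genes that supply NADPH, Tkt fell by 1.93 (SE 0.37), Me1 by 1.90 (SE 0.37) and Taldo1 by 1.02. Sephs2 fell by 1.90, catalase (Cat) by 0.90 and Cbr1 by 0.72. In the same comparison 6 of 10 brown adipocyte markers fell (median log2 change -3.68) and 2 of 16 macrophage markers rose (median 1.59), and the part of these cells was not tested. At 13 °C 3 of the 79 were called, beside 2.59% of all genes. Prdx6 rose by 1.47 (SE 0.38), and Tkt fell by 1.77 and Me1 by 1.91. Prdx6 was thus called higher in both white depots at both temperatures, and its iBAT values passed in neither comparison. These calls alone do not show that its GC effect differs between depots.

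With cold in GC mice, 4 of the 79 genes rose in scWAT and 5 fell, 11.4% against 8.18% of all genes. Ggt1, an enzyme of glutathione breakdown, rose by 5.12 (SE 1.44), Sephs2 by 1.61, Sesn2 by 1.42 and Cat by 1.06. Ptgr1 fell by 1.63, Bach1, a repressor at antioxidant response elements, by 1.38, Akr1b8 by 1.28, Glrx by 1.04 and Txn1, thioredoxin itself, by 0.97. That comparison sets the macrophage-rich GC libraries 2 and 3 at 22 °C against GC libraries at 13 °C of which 3 of 4 held epithelial markers. In it 15 of 16 macrophage markers fell and 8 of 8 epithelial markers rose, and the part of these cells was not tested. It also shares the GC libraries at 22 °C with the comparison above, so opposite signs of Ptgr1, Akr1b8, Glrx, Cat and Sephs2 in both are not independent. The median log2 change of those of the 81 genes that were tested ranged from -0.18 to 0.16 over the 15 comparisons.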

How the data were processed

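RNA-seq was analysed from raw read counts per gene, deposited by the authors in 1 table per depot with 31933 genes. The tools named in the submitters' processing notes are FastQC, GSNAP and featureCounts 1.6.3, with build mm10. The labels name no annotation or strand setting. SMARTSeq2 marks no strand, so reads of overlapping genes on both strands cannot be told apart. Gene IDs were matched to GENCODE M21.

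In R 4.3.3, each depot was fitted with edgeR 4.0.16: filterByExpr (minimum count 10, minimum total 15; 17163, 20175 and 19003 genes kept), TMM scaling and a robust quasi-likelihood fit with 1 mean per group, with Benjamini-Hochberg adjustment over all genes. Depots were compared in 1 fit of 55 libraries (22245 genes). Standard errors come from the F statistic and 95% intervals from the t distribution. Alternatives were DESeq2 1.42.0, limma 3.58.1, RLE factors, no filter, only the groups compared, a replicate block and libraries left out. No pair of libraries among 101 within-group pairs held identical counts. The code was tested on simulated data. The members and lists were chosen with earlier results of these data known. The 10 members were always named. Of the 81 pathway genes up to 4 called ones were named per list, comparison and direction, by smallest adjusted p.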

Additional observations from a re-analysis of the deposited data

Results flagged for a closer look

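In 8 of 110 groups of 4 or 5 libraries, 1 library lay far from the others of its group in the level of a gene, by Dixon's criterion at 95%, which chance meets in about 1 in 20 groups. In iBAT, Hmox1 was at 24.8 CPM in placebo library 5 at 13 °C, against 5.52 to 10.8 CPM in the others. Gclm was at 57.7 CPM in placebo library 1 at 13 °C (others 35.8 to 38.5) and at 30.3 CPM in GC library 4 at 22 °C (others 17.0 to 19.6). Srxn1 was at 55.8 CPM in GC library 1 at 13 °C (others 34.5 to 37.4). In goWAT, Txnrd1 was at 81.4 CPM in GC library 4 at 22 °C (others 32.5 to 41.7) and at 47.8 CPM in GC library 1 at 13 °C (others 33.1 to 36.3). In scWAT at 13 °C, Gclc was at 22.9 CPM in GC library 4 (others 12.4 to 12.8) and Gpx3 at 1093 CPM in GC library 3 (others 1909 to 1975).

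The GC effect on Gpx8 at 22 °C differed between the depots, with an adjusted p of 0.0117 in edgeR's F-test, the effect being a fall in iBAT and scWAT and -0.05 on the log2 scale in goWAT.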

How the results depend on the processing

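No call of the 10 genes changed sign under any alternative run, and the pathway genes were not run under alternatives. Of 1370 values of single genes under settings other than leaving out 1 library, 14 lost a call, 10 gained one, and 35 that were never called moved by over 1 SE. Of 5500 values with 1 library left out, these numbers were 34, 29 and 28. DESeq2 moved the median of all genes by over 0.1 in 3 goWAT comparisons, at most by -0.18, in the interaction. No filter moved it by -0.13 in the scWAT interaction, and leaving out the libraries with epithelial markers by -0.12 for cold in GC scWAT.

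The number of the 10 genes called changed by over 1.5 times as follows. With GC in iBAT at 13 °C it went from 1 to 3 with DESeq2 and with limma's library weights. At 22 °C in iBAT it went from 2 to 1 without placebo library 1 and GC library 5, and to 1 without placebo library 3 and libraries 4 of both treatments at 13 °C. In goWAT at 22 °C it went from 2 to 1 with limma's library weights and without GC libraries 2 and 4. With cold in placebo goWAT it went from 0 to 1 with DESeq2. In scWAT at 13 °C it went from 4 to 1 without the 4 libraries that held epithelial markers. With cold in GC scWAT it went from 1 to 2 with DESeq2, and to 0 with only the groups compared in the fit, without GC libraries 2 and 3 at 22 °C, and without the libraries with epithelial markers. The scWAT interaction went from 0 to 1 with DESeq2. Settings that leave out libraries or groups use fewer samples, and otherwise the cause was not tested.

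Leaving out 1 library at a time gave 1 to 2 genes for GC in iBAT at 22 °C and at 13 °C, 1 to 2 for GC in goWAT at 22 °C, 0 to 1 for GC in goWAT at 13 °C, 0 to 2 for cold in GC scWAT, 0 to 1 for the GC effect by depot at 22 °C and 2 to 4 for placebo goWAT against scWAT. With the replicate number as a block, the goWAT count at 13 °C went from 1 to 0. Over all genes the block took the calls for GC at 13 °C from 292 to 145 in goWAT and from 493 to 286 in scWAT, and those for cold in GC scWAT from 1555 to 494. The numbers were not taken to pair the libraries, since the labels do not say that they mark an animal or batch. Deviations from group means were correlated between libraries of different groups within a depot. Among pairs with the same number, 10 of 24 in iBAT, 2 of 27 in goWAT and 3 of 24 in scWAT were above 0.1. Among pairs with different numbers these were 24 of 96, 18 of 108 and 17 of 97. Libraries of different groups cannot share an animal, so these values cannot show whether depots did. With DESeq2, calls over all genes for GC went from 114 to 418 at 22 °C and from 125 to 412 at 13 °C in iBAT, from 1206 to 2384 and from 292 to 962 in goWAT, and from 1317 to 2393 and from 493 to 1161 in scWAT. With limma's library weights they went to 954 and 264, 1013 and 2214, and 2238 and 1523 in the same order. Depth limits Osgin1 most, with 3 of 55 libraries under 10 counts.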
